A study of Mus musculus with 6 samples.

Results

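The 52 genes described here encode the proteins that copy DNA and the regulators that bring a cell from G1 into S phase. They were chosen by name and found in the deposited table by matching its gene identifiers to mouse symbols. All 52 were among the 26094 listed genes. RNA was sequenced from 6 libraries of the mouse line 4T1, mammary carcinoma cells that form aggressive tumours in mice. Limch1_OE, with 3 libraries, stands for cells given the mouse Limch1 coding sequence in the lentiviral plasmid pLVX-IRES-neo. Vector, also with 3, stands for cells given the plasmid without it. Both groups were infected with virus packaged in HEK293T cells, a human embryonic kidney line, and were selected with antibiotic as stable lines. No uninfected cells were analysed here, and the labels do not say whether a line was 1 clone or a pool. Nor do they say whether libraries came from separate cultures, so p-values cover only how far these libraries differ among themselves, a spread that may be technical.

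Before S phase, the origin recognition complex, Cdc6 and Cdt1 load rings of the MCM helicase onto DNA. In S phase, Cdc45 and the GINS complex turn each ring into a moving helicase. DNA polymerase alpha with primase then lays primers, and polymerases delta and epsilon extend them on the sliding clamp PCNA, which the RFC complex loads. Many of these genes are transcribed late in G1 under E2F factors, whose release from the retinoblastoma protein is driven by cyclin D and cyclin E kinases. A carcinoma line in culture cycles continuously and expresses the whole set.

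These 4 promoters belong to genes that moved. Rrm2 had the smallest adjusted p of the 52, Mcm5 and Mcm6 are among the 8 helicase genes that fell, and Pola1 is one of the 2 genes that rose. Each is the 250 bases before the RefSeq transcription start, 5′ to 3′ on the gene's strand (GRCm38.p6, the assembly called mm10). Capitals mark CCAAT or its reverse complement ATTGG, to which the factor NF-Y binds, and the E2F-type motifs TTTCCCGC, TTTCGCGC, TTTGGCGC and TTTGCCGC on either strand. Motif matches that overlap run together.
Rrm2, chr12:24708004-24708253, plus strand: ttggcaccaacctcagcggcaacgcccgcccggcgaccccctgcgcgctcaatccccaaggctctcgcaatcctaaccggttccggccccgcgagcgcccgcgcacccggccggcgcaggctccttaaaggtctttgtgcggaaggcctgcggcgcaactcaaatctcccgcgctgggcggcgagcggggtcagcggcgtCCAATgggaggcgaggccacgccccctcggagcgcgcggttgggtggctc
Mcm5, chr8:75109259-75109508, plus strand: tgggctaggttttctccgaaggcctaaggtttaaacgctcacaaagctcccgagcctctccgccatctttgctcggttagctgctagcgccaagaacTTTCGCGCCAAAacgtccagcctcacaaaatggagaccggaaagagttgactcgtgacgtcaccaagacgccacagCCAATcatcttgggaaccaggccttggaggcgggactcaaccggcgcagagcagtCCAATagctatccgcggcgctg
Mcm6, chr1:128359706-128359955, minus strand: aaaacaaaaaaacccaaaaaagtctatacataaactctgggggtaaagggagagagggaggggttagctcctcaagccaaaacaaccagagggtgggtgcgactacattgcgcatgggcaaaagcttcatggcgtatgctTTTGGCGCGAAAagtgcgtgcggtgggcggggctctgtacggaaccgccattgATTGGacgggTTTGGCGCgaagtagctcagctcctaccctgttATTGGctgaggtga
Pola1, chrX:93632156-93632405, minus strand: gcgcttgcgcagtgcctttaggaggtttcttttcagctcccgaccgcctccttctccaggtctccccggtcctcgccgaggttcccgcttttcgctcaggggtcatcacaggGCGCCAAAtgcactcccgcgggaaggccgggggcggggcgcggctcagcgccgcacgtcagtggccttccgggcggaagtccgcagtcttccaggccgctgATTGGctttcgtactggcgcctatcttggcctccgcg
Mcm6 holds E2F-type matches that begin 110, 106 and 47 bases before the start, and Mcm5 holds them at 153 and 149 bases. Pola1, which moved the other way, also holds 1, at 138 bases. Rrm2 holds none in these 250 bases and 1 CCAAT, 50 bases before the start. The RefSeq table had promoters for 43 of the 52 genes. Over its full windows, which also hold 50 bases after the start, 17 of the 43 (39.5%) had an E2F-type match, against 704 of 27025 genes in the table (2.60%) and 445 of 8520 tested genes found there (5.22%). Such a match was held by 9 of 21 genes that fell, by 1 of 2 that rose and by 7 of 20 that did not pass the test. Of the helicase genes that fell, only the Mcm5 and Mcm6 shown here held one. Mcm2 and Mcm10 also fell and were in the RefSeq table without one, whereas Mcm3, Mcm7 and Gins3 held one and did not pass. CCAAT on either strand was in 27 of the 43 (62.8%), against 43.6% of the tested genes found there. A match describes letters in a window and not a bound site.

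The deposited values are FPKM, fragment counts scaled to transcript length and library size, listed per transcript and summed here per gene. A gene entered the test if 3 or more libraries reached 1 FPKM, which 11842 genes did. They were compared with limma on log2(FPKM + 1), Limch1_OE minus Vector, and p-values adjusted over all of them by the Benjamini-Hochberg method. A gene was called at an adjusted p under 0.05. Fold changes are given on that log2 scale, where the added 1 shrinks the changes of low genes. Limch1 itself averaged 24.3 ± 1.23 FPKM in Limch1_OE, against 0.167 ± 0.076 FPKM in Vector (± SD here and below, with 3 libraries a group). Sums per library were 421767 to 425064 FPKM in Limch1_OE and 414837 to 416242 FPKM in Vector, and the sequencing depth is unknown. All 6 epithelial markers looked up (Epcam, Cdh1, Krt8, Krt18, Krt7 and Krt14) were expressed, summing to 1440 to 1590 FPKM in Limch1_OE and 1461 to 1528 FPKM in Vector. They did not all stay level: Epcam and Cdh1 fell by 0.44 and 0.18, and Krt7 rose by 0.37 (limma adjusted p = 2.44e-04, 0.0143 and 0.00315). Krt8, Krt18 and Krt14 did not pass, and the part of these shifts in the members' values was not tested. Of 12 markers of leukocytes, fibroblasts, endothelium, fat and smooth muscle, 8 were listed, none above 0.36 FPKM. They summed to 0.33 to 0.36 FPKM in Limch1_OE and 0.33 to 0.50 FPKM in Vector. The leukocyte genes Ptprc and Itgam were each listed at 0 in 5 of the 6 libraries.

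Of the replication and G1/S genes, more were lower than higher in Limch1_OE, by small amounts. All 52 were tested: 26 of them, or 50%, fell, 2 rose, and the other 24 were not called. Among all tested genes 14.4% were called lower and 20.2% higher, a count of higher genes that was 1578 without Limch1_OE replicate 2 and 1590 without Vector replicate 1. The fold change was negative for 46 of the 52, with a median of -0.16, against a median of 0.04 over all tested genes. The range ran from -0.57 for Rrm2 to 0.37 for Orc2. In 35 of the 52 every Limch1_OE library lay below every Vector library, against 20.5% of all tested genes, and in 2 every Limch1_OE library lay above, against 28.6%. With the trimmed mean of M values as scaling, 32 were called lower and 2 higher. That scaling moved the split over all genes, which was 2069 lower and 1868 higher (52.55% lower) against 1706 lower and 2388 higher (41.67% lower) without it.

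Summed over the 52 genes, the Limch1_OE libraries held 2080, 2181 and 2227 FPKM, in replicate order, and the Vector libraries held 2454, 2452 and 2515 FPKM. Every Limch1_OE sum was thus below every Vector sum, and Limch1_OE replicate 1 had the lowest. It also held the lowest of the 6 values in 28 of the 52 genes. Transcripts of the mitochondrial genome took 8.73, 6.31 and 6.48% of all FPKM in Limch1_OE and 5.57, 4.76 and 4.82% in Vector (exact permutation test of the means, two-sided, p = 0.1, the smallest that 3 against 3 libraries allow). With libraries rescaled to a common total without mitochondrial genes, 26 members were lower and 2 higher. Without Limch1_OE replicate 1, 22 were lower and 2 higher. In bulk RNA, fewer cells in S phase and less of these mRNAs per cell cannot be told apart.

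**Figure D1:**
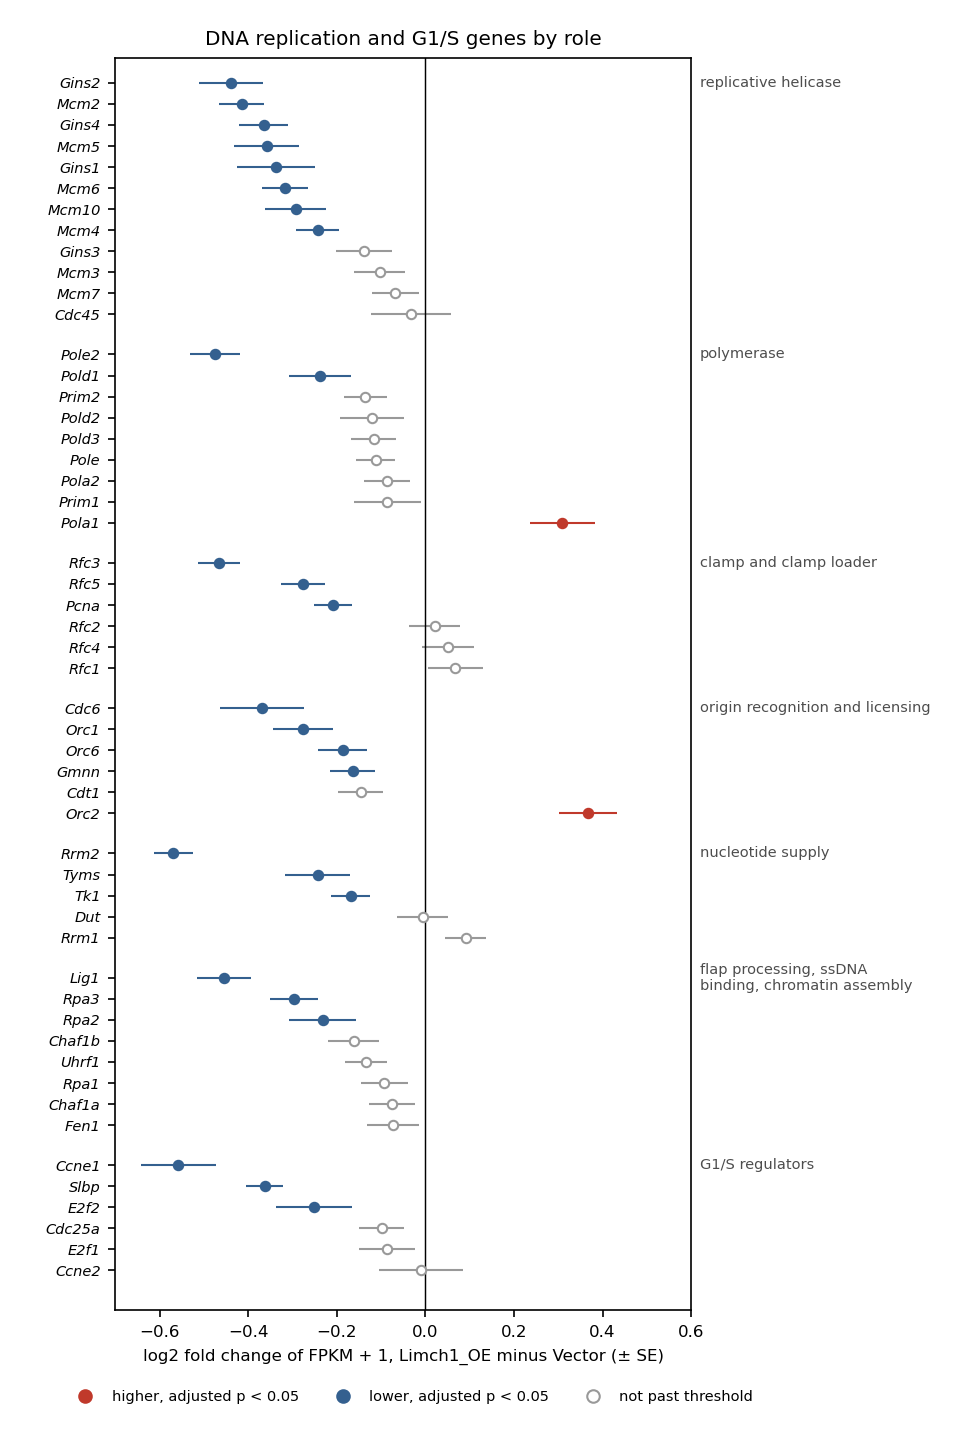
Log2 fold change of FPKM + 1 (Limch1_OE minus Vector, points, with the standard error as bars) for each of the 52 genes, grouped by role. Blue points are the 26 that fell, red points the 2 that rose, Orc2 and Pola1, and open grey points the 24 that did not pass the test; all 12 helicase genes lie left of 0.

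Of the 12 helicase genes 8 fell (66.7%) and none rose, against 14.4 and 20.2% of all tested genes. Their median fold change was -0.30, the lowest of the 7 roles. Mcm2 to Mcm7 encode the 6 subunits of the ring. Mcm2 (chromosome 6, 88883474 to 88898780, minus strand, mm10) was at 63.98, 69.15 and 70.81 FPKM in Limch1_OE and at 89.98, 93.33 and 89.36 FPKM in Vector, with no overlap. It fell by 0.41 (SE 0.05, limma adjusted p = 4.96e-04). Mcm5 was at 82.29, 94.89 and 102.24 FPKM in Limch1_OE and at 116.87, 118.62 and 122.23 FPKM in Vector. It fell by 0.36 (SE 0.07, limma adjusted p = 0.00664), and the Limch1_OE libraries were more scattered than the Vector libraries. Mcm6 was at 107.79, 115.33 and 115.55 FPKM in Limch1_OE and at 140.72, 134.69 and 147.26 FPKM in Vector. Mcm4 was at 56.85, 59.27 and 60.62 FPKM in Limch1_OE and at 70.44, 67.09 and 72.27 FPKM in Vector. Neither overlapped between groups, and they fell by 0.32 and 0.24 (limma adjusted p = 0.00216 and 0.00571).

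Mcm3 and Mcm7 are subunits of the same ring and did not pass the test. Mcm3 was at 93.10, 99.95 and 106.39 FPKM in Limch1_OE and at 109.13, 102.76 and 109.67 FPKM in Vector. Mcm7 was at 134.74, 148.56 and 151.91 FPKM in Limch1_OE and at 150.87, 150.06 and 154.77 FPKM in Vector. Both overlapped between groups, with fold changes of -0.10 (SE 0.06) and -0.07 (SE 0.05). As mean FPKM, which is per length, the order of the ring genes was Mcm7, Mcm6, Mcm3, Mcm5, Mcm2 and Mcm4 in Limch1_OE. In Vector, Mcm5 stood above Mcm3, with the rest in the same order. Mcm3 and Mcm5 overlapped within Limch1_OE, so these neighbours did not differ there beyond their spread. The highest mean was 2.46 times the lowest in Limch1_OE and 2.17 times in Vector.

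**Figure D2:**
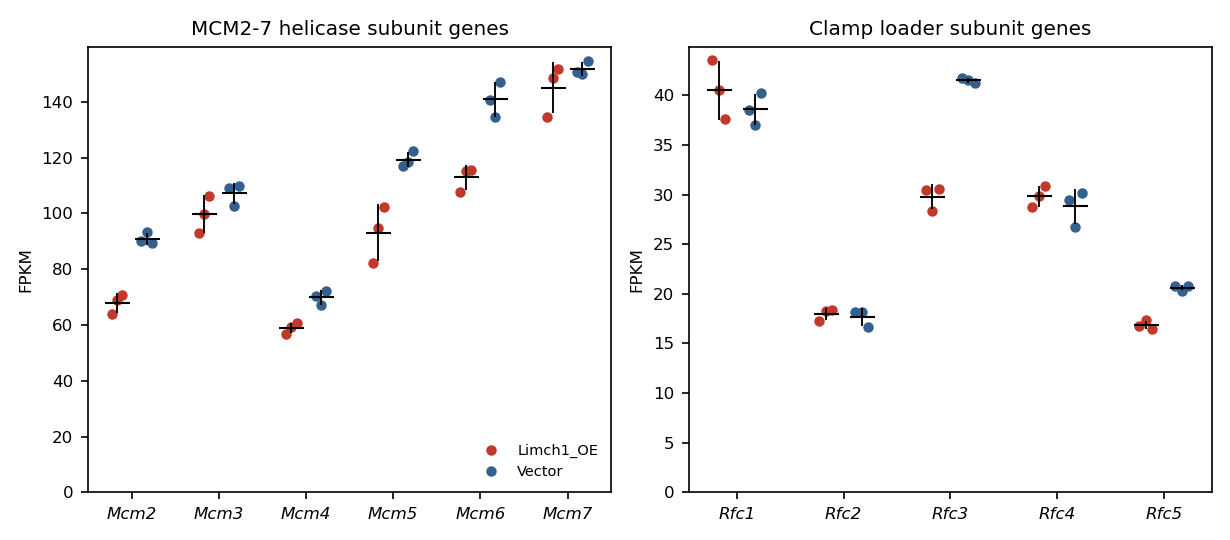
FPKM of the MCM ring genes (left) and of the clamp loader genes (right) in each library, Limch1_OE in red and Vector in blue, with the mean and SD in black. Mcm2, Mcm4, Mcm5, Mcm6, Rfc3 and Rfc5 show no overlap between groups, whereas Mcm3, Mcm7, Rfc1, Rfc2 and Rfc4 overlap.

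The other helicase genes encode partners that activate the ring. GINS subunit gene Gins2 (chromosome 8, 120578633 to 120589304, minus strand) was at 8.91, 9.08 and 9.83 FPKM in Limch1_OE and at 13.98, 11.91 and 12.94 FPKM in Vector. Gins4 was at 28.42, 30.02 and 32.27 FPKM in Limch1_OE and at 38.73, 38.98 and 39.77 FPKM in Vector. Gins1 was at 9.80, 8.72 and 7.80 FPKM in Limch1_OE and at 10.98, 10.71 and 12.29 FPKM in Vector. All 3 fell without overlap, by 0.44, 0.36 and 0.34 (limma adjusted p = 0.00239, 0.00156 and 0.0181). Gins3, the fourth GINS gene, averaged 9.43 ± 0.495 FPKM in Limch1_OE and 10.5 ± 0.352 FPKM in Vector and did not pass (fold change -0.14, limma adjusted p = 0.122). Mcm10, which helps to start the helicase, averaged 35.3 ± 3.44 FPKM in Limch1_OE and 43.4 ± 0.347 FPKM in Vector and fell by 0.29. Cdc45, which joins MCM and GINS in the moving helicase, averaged 33.2 ± 3.46 FPKM in Limch1_OE and 33.9 ± 3.25 FPKM in Vector (fold change -0.03, SE 0.09), with overlap. The Gins1 call ended without Limch1_OE replicate 2 (limma adjusted p = 0.0516) or Vector replicate 3 (0.0648), within a range of 0.00873 to 0.0665 over the 15 alternatives. Gins1 passed in 12 of 16 settings, counting the main fit and the alternatives. The Mcm10 call ended only when the sum was replaced by the most abundant transcript (0.519; range from 0.00756).

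Of the 9 polymerase genes 2 fell, 1 rose and 6 did not pass. The shares of 22.2% lower and 11.1% higher lay near the 14.4 and 20.2% of all tested genes. Pole2 (chromosome 12, 69201773 to 69228195, minus strand), an accessory subunit of the leading-strand polymerase epsilon, was at 8.46, 8.07 and 8.45 FPKM in Limch1_OE. It was at 11.94, 11.90 and 12.05 FPKM in Vector. The libraries of each group lay close together and did not overlap, and Pole2 fell by 0.48 (SE 0.06, limma adjusted p = 4.09e-04). Pole, the catalytic subunit of the same enzyme, averaged 35.2 ± 0.627 FPKM in Limch1_OE and 38.2 ± 0.573 FPKM in Vector. Its fold change of -0.11 did not pass (SE 0.04, limma adjusted p = 0.0790). Pold1, the catalytic subunit of polymerase delta, averaged 33.8 ± 2.42 FPKM in Limch1_OE and 40.0 ± 2.91 FPKM in Vector and fell by 0.24 (limma adjusted p = 0.0299). That call ended without Limch1_OE replicate 1 or 2 or Vector replicate 2 or 3 (0.0766, 0.0724, 0.101 and 0.0850), within a range of 0.0162 to 0.109. Other alternatives ended it too, and Pold1 passed in 9 of 16 settings.

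Pola1 (chromosome X, 93304767 to 93632155, minus strand), the catalytic subunit of polymerase alpha, was at 21.18, 18.73 and 17.55 FPKM in Limch1_OE and at 14.54, 15.40 and 15.75 FPKM in Vector. Every Limch1_OE library lay above every Vector library, and Pola1 rose by 0.31 (SE 0.07, limma adjusted p = 0.0122). The other subunits of the alpha-primase complex did not rise with it. Pola2, the accessory subunit, averaged 51.8 ± 2.27 FPKM in Limch1_OE and 55.1 ± 2.03 FPKM in Vector. The primase genes Prim1 and Prim2 averaged 43.2 ± 2.47 and 23.3 ± 0.17 FPKM in Limch1_OE, against 46.0 ± 4.46 and 25.7 ± 0.895 FPKM in Vector. None of these 3 passed, nor did the delta subunits Pold2 and Pold3, and their fold changes lay between -0.14 and -0.09.

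The sliding clamp gene Pcna averaged 156 ± 0.880 FPKM in Limch1_OE and 181 ± 5.11 FPKM in Vector, and fell by 0.21 (SE 0.04, limma adjusted p = 0.00642). It was the most abundant member in both groups. Its loader genes split. Rfc3 (chromosome 5, 151642756 to 151651242, minus strand) was at 30.42, 28.37 and 30.58 FPKM in Limch1_OE and at 41.75, 41.55 and 41.23 FPKM in Vector. Rfc5 was at 16.75, 17.32 and 16.51 FPKM in Limch1_OE and at 20.80, 20.33 and 20.76 FPKM in Vector. These small subunits fell by 0.47 and 0.28, with no overlap (limma adjusted p = 1.81e-04 and 0.00344).

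The large subunit gene Rfc1 was at 43.51, 40.51 and 37.57 FPKM in Limch1_OE and at 38.51, 37.02 and 40.21 FPKM in Vector. Rfc2 was at 17.25, 18.23 and 18.33 FPKM in Limch1_OE and at 18.19, 18.16 and 16.65 FPKM in Vector. Rfc4 was at 28.75, 29.88 and 30.89 FPKM in Limch1_OE and at 29.49, 26.75 and 30.16 FPKM in Vector. None of these passed, each overlapped, and their fold changes were 0.07, 0.02 and 0.05 (SE 0.06 each). By mean FPKM, Rfc3 was the highest of the loader genes in Vector and the third in Limch1_OE, where it did not differ from Rfc4 beyond the spread.

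Of the 6 origin genes 4 fell, 1 rose and 1 did not pass. As shares, 66.7% were lower and 16.7% higher, against 14.4 and 20.2% of all tested genes. Orc2 (chromosome 1, 58462771 to 58505109, minus strand), a core subunit of the origin recognition complex, was at 19.86, 17.69 and 17.82 FPKM in Limch1_OE and at 13.26, 14.64 and 14.36 FPKM in Vector. It rose by 0.37 (SE 0.07, limma adjusted p = 0.00351), with every Limch1_OE library above every Vector library. Orc1 and Orc6 of the same complex averaged 10.7 ± 0.854 and 37.4 ± 1.34 FPKM in Limch1_OE, against 13.1 ± 0.310 and 42.7 ± 2.27 FPKM in Vector, and fell by 0.28 and 0.19. The Orc1 call ended without Limch1_OE replicate 2 (limma adjusted p = 0.0522; range from 0.00730). The Orc6 call ended without Limch1_OE replicate 2 or Vector replicate 1 or 3 (0.102, 0.0829 and 0.0961; range 0.0143 to 0.319). Other alternatives ended it too, and Orc6 passed in 9 of 16 settings.

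Cdc6 (chromosome 11, 98907801 to 98923940, plus strand), an ATPase that loads MCM, was at 8.14, 9.72 and 9.26 FPKM in Limch1_OE and at 11.86, 10.60 and 13.48 FPKM in Vector. It fell by 0.37 (SE 0.09, limma adjusted p = 0.0171), a call that ended without Vector replicate 3 (0.0559; range 0.0120 to 0.520). Cdc6 passed in 13 of 16 settings. The coding transcript Cdc6-201 was at 6.58, 8.23 and 7.90 FPKM in Limch1_OE and at 10.26, 8.83 and 6.85 FPKM in Vector, with overlap. In Vector replicate 3 the nonsense-mediated decay transcript Cdc6-203 held 5.09 FPKM, against at most 1.75 FPKM in any other library. Cdt1, the partner of Cdc6, averaged 110 ± 4.25 FPKM in Limch1_OE and 122 ± 5.21 FPKM in Vector and just missed the threshold (fold change -0.15, limma adjusted p = 0.0526). Geminin (Gmnn), the protein that holds Cdt1 inactive, averaged 32.9 ± 0.563 FPKM in Limch1_OE and 37.0 ± 1.85 FPKM in Vector and just passed it (fold change -0.16, limma adjusted p = 0.0357). The geminin call ended without any single library (0.0529 to 0.118) and ranged from 0.0150 over the alternatives. Gmnn passed in 5 of 16 settings. The ratio of Cdt1 to Gmnn FPKM was 3.35 ± 0.158 in Limch1_OE and 3.30 ± 0.273 in Vector (± SD, exact permutation p = 0.9), one of 3 such ratios computed.

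Nucleotide supply held the member with the smallest adjusted p. Rrm2 (chromosome 12, 24708241 to 24714146, plus strand), the small subunit of ribonucleotide reductase, was at 53.97, 55.62 and 56.75 FPKM in Limch1_OE and at 81.73, 84.35 and 82.02 FPKM in Vector. The groups were far apart relative to their spread. Mean FPKM fell by 33.0%, and the log2 value fell by 0.57 (SE 0.04, limma adjusted p = 2.54e-05). Rrm1, the large subunit of the same enzyme, averaged 97.8 ± 3.83 FPKM in Limch1_OE and 91.7 ± 1.83 FPKM in Vector, and did not pass (fold change 0.09, SE 0.05, limma adjusted p = 0.161). The ratio of Rrm2 to Rrm1 was 0.577, 0.561 and 0.563 in Limch1_OE and 0.903, 0.929 and 0.874 in Vector (exact permutation p = 0.1, the smallest possible). The ratio did not overlap between groups. It was chosen after the values were seen, so this adds nothing to the fall of Rrm2 itself. With quantile normalization Rrm1 passed as higher (0.15, limma adjusted p = 0.0182; range to 0.448).

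The thymidine kinase gene Tk1 averaged 46.9 ± 0.814 FPKM in Limch1_OE and 52.9 ± 1.48 FPKM in Vector, and fell by 0.17 (limma adjusted p = 0.0190). The thymidylate synthase gene Tyms averaged 9.91 ± 0.682 FPKM in Limch1_OE and 11.9 ± 0.867 FPKM in Vector, and fell by 0.24 (limma adjusted p = 0.0334). Dut, whose product removes dUTP, averaged 39.0 ± 2.67 FPKM in Limch1_OE and 39.1 ± 1.19 FPKM in Vector (fold change -0.01, SE 0.06). The Tk1 call ended without Limch1_OE replicate 2 or Vector replicate 1 or 2 (0.0651, 0.0578 and 0.0756; range 0.00825 to 0.0793). The Tyms call ended without Limch1_OE replicate 1 or 2 or Vector replicate 1 or 3 (0.0820, 0.0662, 0.123 and 0.0709; range from 0.0214). Over all 16 settings, Tk1 passed in 12 and Tyms in 9.

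Of the 8 genes for flap processing, single-stranded DNA binding and chromatin assembly, 3 fell (37.5%) and none rose, against 14.4 and 20.2% of all tested genes. Lig1 (chromosome 7, 13277283 to 13311433, plus strand), the ligase that seals Okazaki fragments, was at 64.00, 72.85 and 71.57 FPKM in Limch1_OE and at 99.21, 91.28 and 95.87 FPKM in Vector. It fell by 0.45 (SE 0.06, limma adjusted p = 7.42e-04) without overlap. Fen1, the nuclease that trims the flaps before ligation, averaged 36.7 ± 2.46 FPKM in Limch1_OE and 38.6 ± 1.09 FPKM in Vector and did not pass (fold change -0.07, SE 0.06). RPA coats single-stranded DNA as a complex of 3 subunits. Its smallest subunit gene, Rpa3, was at 24.62, 26.52 and 25.80 FPKM in Limch1_OE and at 30.47, 33.41 and 31.29 FPKM in Vector, and fell by 0.30 (SE 0.05, limma adjusted p = 0.00401). Rpa2 averaged 27.7 ± 3.03 FPKM in Limch1_OE and 32.6 ± 0.452 FPKM in Vector and fell by 0.23 (limma adjusted p = 0.0417). Its call ended without any of the 3 Vector replicates (0.0929, 0.107 and 0.0874; range 0.0252 to 0.1204), among other alternatives. Rpa2 passed in 9 of 16 settings.

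Rpa1, the largest RPA subunit, and the remaining genes of this group did not pass. Rpa1 averaged 32.8 ± 1.76 FPKM in Limch1_OE and 35.0 ± 0.666 FPKM in Vector. Chaf1a and Chaf1b encode subunits of CAF-1, which deposits histones behind the fork, and had fold changes of -0.08 and -0.16. Uhrf1, which couples DNA methylation to replication, averaged 57.7 ± 1.77 FPKM in Limch1_OE and 63.4 ± 2.05 FPKM in Vector (fold change -0.13). Chaf1b and Uhrf1 lay just outside the threshold (limma adjusted p = 0.0582 and 0.0551), with no overlap between groups.

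Among the 6 genes grouped as G1/S regulators 3 fell (50%) and none rose, against 14.4 and 20.2% of all tested genes. The group also holds Slbp, which encodes a histone mRNA-binding protein and not a regulator of G1/S, and Slbp was among the 3. Ccne1 (chromosome 7, 38097984 to 38107534, minus strand), which encodes cyclin E1, the activator of the G1/S kinase Cdk2, was at 4.22, 3.88 and 4.09 FPKM in Limch1_OE and at 5.72, 7.01 and 6.68 FPKM in Vector. Mean FPKM fell by 37.2%, the largest relative decrease of the 52 genes, and the log2 value fell by 0.56 (SE 0.09, limma adjusted p = 0.00159). The cyclin E2 gene Ccne2 was at 6.94, 6.13 and 5.70 FPKM in Limch1_OE and at 6.01, 5.79 and 7.13 FPKM in Vector (fold change -0.01, SE 0.10). The ratio of Ccne1 to Ccne2 was 0.653 ± 0.057 in Limch1_OE and 1.03 ± 0.154 in Vector (± SD, exact permutation p = 0.1). That ratio did not overlap between groups either, and it too was chosen after the values were seen.

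Slbp (chromosome 5, 33634952 to 33652574, minus strand), whose product binds the stem-loop of replication histone mRNAs, was at 44.13, 43.95 and 43.73 FPKM in Limch1_OE and at 56.14, 56.68 and 57.51 FPKM in Vector. It fell by 0.36 (SE 0.04, limma adjusted p = 3.22e-04), with less spread within groups than most members. Of the E2F activators, E2f1 averaged 19.3 ± 1.43 FPKM in Limch1_OE and 20.6 ± 0.421 FPKM in Vector and did not pass (fold change -0.09, SE 0.06). E2f2 was the lowest member, averaging 2.73 ± 0.255 FPKM in Limch1_OE, against 3.44 ± 0.155 FPKM in Vector, and lay just inside the threshold (fold change -0.25, limma adjusted p = 0.0489). Its call ended without Limch1_OE replicate 1 or 2 or without any Vector replicate (0.117, 0.111, 0.145, 0.0799 and 0.112; range 0.0262 to 0.147). Other alternatives ended it too, and E2f2 passed in 5 of 16 settings. These 16 count the filter at 5 FPKM, under which E2f2 was too low to be tested. Cdc25a, the phosphatase that activates Cdk2, averaged 16.3 ± 0.45 FPKM in Limch1_OE and 17.6 ± 0.036 FPKM in Vector (fold change -0.10, limma adjusted p = 0.160).

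**Figure D3:**
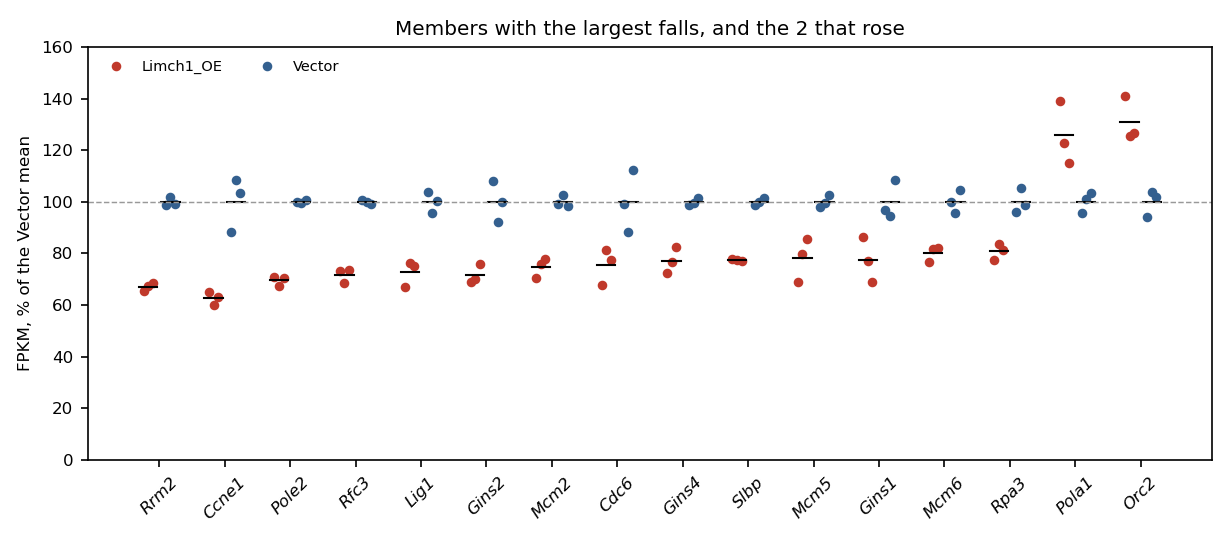
FPKM of each library as a percentage of the Vector mean for the 14 genes with the largest falls past the threshold and for Pola1 and Orc2, Limch1_OE in red to the left of Vector in blue; black lines are group means and the dashed line is 100%. In all 16 genes the libraries of the groups do not overlap, and Ccne1 and Rrm2 have the lowest Limch1_OE means.

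The calls were not equally firm. Of the 26 genes that fell, 14 passed under every one of the 15 alternatives: Mcm2, Mcm4, Mcm5, Mcm6, Gins2, Gins4, Pole2, Pcna, Rfc3, Rfc5, Rrm2, Rpa3, Ccne1 and Slbp. Pola1 and Orc2 also passed as higher under each. The fold change was negative under every setting that tested the gene for 41 of the 52.

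At the level of transcripts, the table listed 271 of the 294 annotated transcripts of these genes. The most abundant one, by mean over all 6 libraries, was protein-coding for all 52. It carried a median of 93.0% of the gene's FPKM, so for most members the sum is close to 1 mRNA. Rrm2 is an example, with nearly all of its FPKM on Rrm2-201. For a few members the split among transcripts varied between libraries of 1 group. The protein-coding Lig1-201 was at 39.33, 25.08 and 59.73 FPKM in Limch1_OE and at 52.71, 33.24 and 26.09 FPKM in Vector. Lig1-209, listed as a processed transcript, was at 18.26, 40.53 and 3.85 FPKM in Limch1_OE and at 23.96, 51.21 and 64.65 FPKM in Vector. One was high where the other was low, and the gene sum was more even than either. When only the most abundant transcript was used, Lig1 stood at 0.12 (limma adjusted p = 0.854; range from 5.41e-04), so the fall of Lig1 rests on the sum.

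Pold1 was split in the same way in Limch1_OE alone. The coding Pold1-201 was at 29.45, 10.22 and 20.98 FPKM in Limch1_OE and at 34.81, 40.48 and 39.90 FPKM in Vector. The shortfall in Limch1_OE replicate 2 was listed under Pold1-208, a nonsense-mediated decay transcript at 20.81 FPKM there and at 0 in the other 5 libraries. In Limch1_OE replicate 3 the retained-intron transcript Pold1-204 held 13.72 FPKM, against at most 1.75 FPKM in any other library. For Tyms, the coding Tyms-201 was at 3.30, 4.40 and 3.32 FPKM in Limch1_OE and at 6.50, 4.55 and 7.89 FPKM in Vector. With the most abundant transcript, Pold1 stood at -1.01 and Tyms at -0.63, and neither passed (limma adjusted p = 0.109 and 0.0817).

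**Figure D4:**
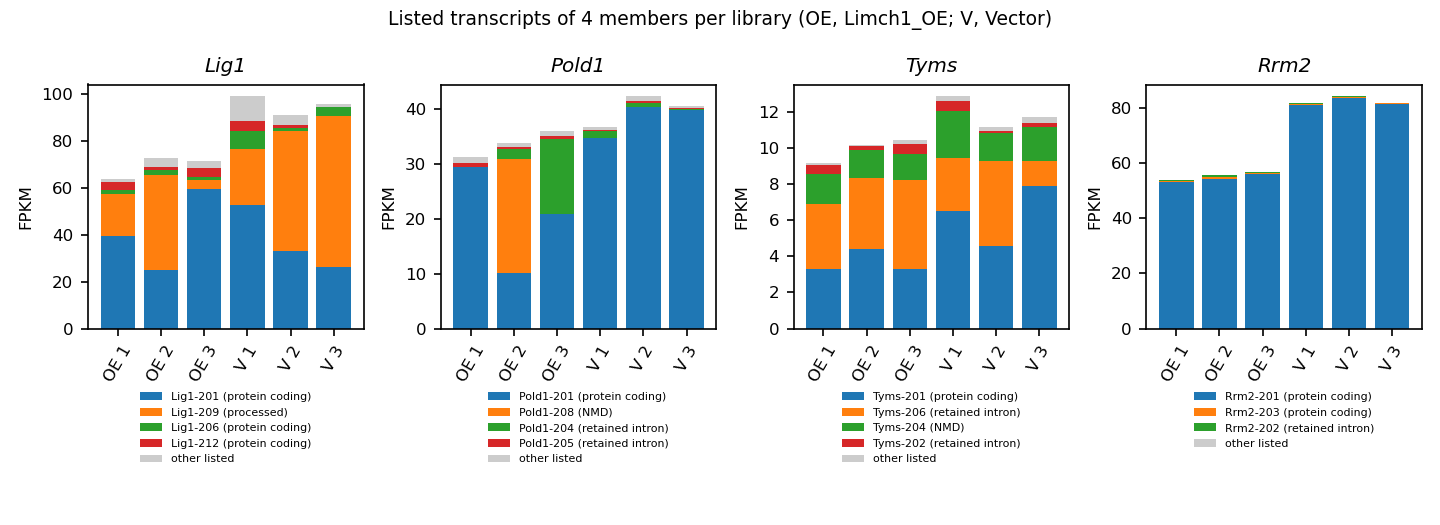
FPKM of the listed transcripts of Lig1, Pold1, Tyms and Rrm2 in each library, stacked, with Limch1_OE libraries left of Vector libraries; grey bars hold the remaining listed transcripts. Bar heights are the gene sums, and the colours change places between libraries of 1 group for Lig1 and, in Limch1_OE, for Pold1, while Rrm2 is almost entirely 1 transcript.

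Retained-intron transcripts, which keep an intron and are not annotated as coding, took a larger share of these genes' FPKM in Limch1_OE but did not separate the groups in amount. They held 3.93, 3.19 and 4.11% of the members' summed FPKM in Limch1_OE and 2.91, 2.89 and 2.50% in Vector, with no overlap (exact permutation p = 0.1). In FPKM they held 81.70, 69.59 and 91.58 in Limch1_OE and 71.39, 70.90 and 63.00 in Vector, which overlapped (exact permutation p = 0.3), and in Limch1_OE replicate 3 Pold1-204 gave 13.72 of them. The members' summed FPKM, the base of the share, was lower in every Limch1_OE library. Over all listed transcripts the shares were 3.48 ± 0.23% in Limch1_OE and 3.37 ± 0.103% in Vector (± SD, exact permutation p = 0.5). Such a transcript was listed for 41 members. Its share had a higher mean in Limch1_OE in 36 of them, against 71.2% of the 6485 tested genes that list one. In 11 every Limch1_OE library was above every Vector library, against 17.7%, and in none was it below in all, against 2.5%. Tk1 was among the 11, with 24.95, 21.04 and 18.98% in Limch1_OE and 14.69, 12.70 and 13.22% in Vector. Pole2 was another, with 8.27, 4.21 and 5.68% in Limch1_OE and 0.419, 2.02 and 0.830% in Vector. These 2 were named after their values were seen, and the coding Pole2-201 still carried 91.7 to 95.8% of the gene's FPKM in Limch1_OE and 98.0 to 99.6% in Vector.

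The members lie on 16 chromosomes, with no more than 8 on any 1.

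Other genes of the pathway were looked up as lists. Of 50 further replication factors, 4 fell and 5 rose, with a median fold change of -0.01. As shares these were 8.0 and 10.0%, both below the 14.4 and 20.2% of all tested genes. Pclaf, which encodes a PCNA-binding factor, averaged 25.9 ± 0.872 FPKM in Limch1_OE, against 38.3 ± 1.38 FPKM in Vector, and fell by 0.55 (SE 0.05, limma adjusted p = 9.45e-05). The fork protection gene Timeless fell by 0.43, the origin firing factor Ticrr by 0.20 and the histone chaperone gene Asf1b by 0.19. Those that rose were Dctpp1 (0.37), which encodes a dCTP-cleaving enzyme, Rbbp4 (0.34), a CAF-1 subunit, Nme1 (0.26), a nucleoside diphosphate kinase, Cad (0.19), the first enzyme of pyrimidine synthesis, and Supt16 (0.18), a subunit of the histone chaperone FACT. Pclaf, Rbbp4 and Nme1 passed under all 15 alternatives. The other calls were less firm: of 16 settings, Timeless passed in 15, Dctpp1 in 11, Ticrr in 10, Asf1b in 9, Cad in 7 and Supt16 in 6. The count of 9 was 5 without Limch1_OE replicate 2, 4 without Vector replicate 1 and 5 without Vector replicate 2 or 3. The difference between this list and the members was not tested.

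A list of 38 cell cycle control genes, named G1/S control genes here, held mostly genes that act on entry into S phase. It also held Cdc25b, Cdc25c and Wee1, which act at entry into mitosis, and the checkpoint kinase genes Atr and Chek1. Of the 38, 33 were tested, of which 9 fell, Cdc25c among them, and 6 rose, Atr among them (median -0.05). Falls were thus 27.3%, against 14.4% of all tested genes, and rises 18.2%, close to the 20.2% of all tested genes. The 5 largest falls were those of the E2F repressor E2f7 (-0.56), the cyclin D3 gene Ccnd3 (-0.39), the kinase gene Cdk2 (-0.39), the kinase inhibitor gene Cdkn1a, or p21 (-0.37), and Ccnd2 (-0.37). Both a kinase and its inhibitor were thus among the genes that fell. Cdk2, the partner of cyclin E, averaged 23.3 ± 1.15 FPKM in Limch1_OE, against 30.9 ± 0.485 FPKM in Vector (limma adjusted p = 7.75e-04). The 5 largest rises were those of the E2F partner Tfdp2 (0.61), the checkpoint kinase gene Atr (0.39), the Cdk4 and Cdk6 inhibitor gene Cdkn2c (0.38), E2f5 (0.31) and the pocket protein gene Rbl2 (0.25). Rises numbered 3 without Limch1_OE replicate 2 or Vector replicate 2. Atr passed in 8 of 15 settings and Rbl2 in 10 of 16, whereas Cdkn2c and E2f5 passed in all 16.

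Of 30 genes of G2 and mitosis, 9 fell and 2 rose (median -0.11). As shares these were 30.0 and 6.7%, against 14.4 and 20.2% of all tested genes. Birc5 (-0.51), Ccnb2 (-0.34), Plk1 (-0.27), Kif20a (-0.27) and Aurka (-0.27) were the largest falls, all of them genes of mitotic kinases, cyclins or spindle proteins. Mki67, the Ki-67 proliferation marker, rose, averaging 39.2 ± 2.19 FPKM in Limch1_OE, against 32.6 ± 1.83 FPKM in Vector (0.26, SE 0.06, limma adjusted p = 0.0116), and passed under all 15 alternatives. The checkpoint kinase gene Bub1 rose by 0.31 (limma adjusted p = 0.0307). That call ended with no filter, with the most abundant transcript and with the replicate block. It also ended without Limch1_OE replicate 1 or 2 or Vector replicate 1 or 2. Bub1 passed in 9 of 16 settings, and its limma adjusted p ranged from 0.00675 to 0.116. The called G2/M genes thus did not all move one way, though rises were a smaller share here than among all tested genes.

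**Figure D5:**
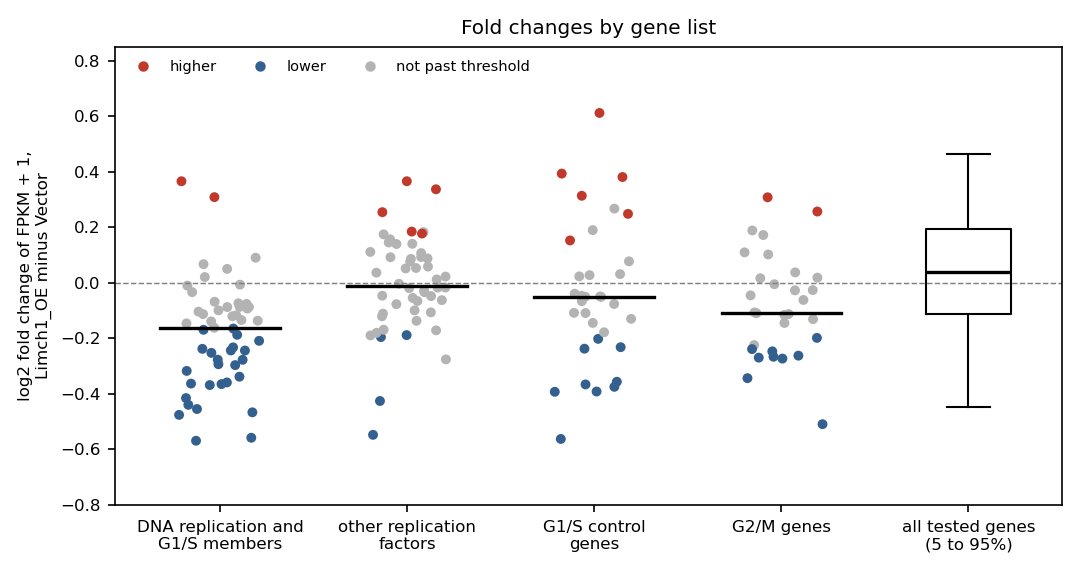
Log2 fold change of FPKM + 1 (Limch1_OE minus Vector) for each tested gene of 4 lists, with the list median as a black line, and, at right, all 11842 tested genes as a box (quartiles) with whiskers at the 5th and 95th percentiles. The medians are -0.16 for the replication and G1/S genes, -0.01 for other replication factors, -0.05 for G1/S control genes, -0.11 for G2/M genes and 0.04 for all tested genes.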

How the data were processed

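RNA-seq values of 6 libraries were analysed. Per the file header, the authors deposited FPKM for 77865 transcripts. StringTie 2.2.1, featureCounts 2.0.1, STAR 2.7.10, fastp 0.23.2 and the mm10 build are listed without roles in the submitters' processing notes. Whether counting used strand, and with which annotation, is not given in the sources used here, and reads of overlapping, antisense or near-identical genes may be shared. Depth is unknown, so no counting interval is given and the number of libraries limits the precision.

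Groups and replicate numbers came from the sample titles. Genotype and cell line labels count upwards from sample to sample and were not used. Symbols came from GENCODE M21 (26033 of 26094 identifiers matched), and transcripts were summed per gene. Values of log2(FPKM + 1) were fitted in R 4.3.3 with limma 3.58.1, using an intensity trend, and the fit was checked on simulated data. Single values were compared by exact two-sided permutation tests. Alternatives were a pseudocount of 0.1, no filter, a filter at 5 FPKM, trimmed mean of M values on the FPKM, quantile normalization, rescaling without mitochondrial genes, the most abundant transcript, no trend, a replicate block and each library left out.

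The members and lists were chosen with earlier results of these data known. Every member is named. Values in every library are given for members that rose, the 14 largest falls past the threshold, and the MCM and RFC subunits. In the other lists, up to 5 called genes in each direction are named. The 3 subunit ratios and the promoters shown were chosen after the values were seen.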

Additional observations from a re-analysis of the deposited data

How the results depend on the processing

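Of the 52 members, between 38 and 51 kept both their direction and their side of the threshold under each alternative. Using only each gene's most abundant transcript, 17 members were lower, 16 of them shared with the sums. That setting also gave 1996 called genes in all, 999 lower and 997 higher, 3 called among other replication factors (1 lower and 2 higher), 8 among G1/S control genes (2 higher) and 1 higher among G2/M genes. Its signs were opposite for Lig1 (0.12), E2f1 (0.21), Ccne2 (0.16) and Rfc2 (-0.068), and the cause was not tested. With no filter, which tests more genes, 18 members were lower, 5 other replication factors were called (2 higher), and 2 G1/S control genes and 1 G2/M gene were higher. Other replication factors called higher numbered 3 with the trimmed mean of M values and 3 without the intensity trend. Rfc2 stood at -0.018 with the trimmed mean of M values, and Dut at 0.022 with quantile normalization. Leaving out 1 library gave 18 to 27 members lower and 2 higher, and 1578 to 2147 genes called higher in all. It gave 4 to 9 other replication factors called, 2 to 5 lower and 2 to 4 higher, with 3 to 6 G1/S control genes and 1 to 3 G2/M genes higher. Leaving out 1 library put Cdc45 between -0.111 and 0.051, Rfc2 between -0.019 and 0.048, Dut between -0.057 and 0.038, and Ccne2 between -0.076 and 0.069. The labels do not say whether replicate numbers pair the samples. Same-numbered libraries correlated at -0.002, 0.046 and 0.059 in their deviations, which with 3 libraries a group cannot settle it. Replicates 2 and 3 correlated best with their own number in both groups, and replicate 1 did not, a hint from the data and not from the design. With the replicate block 23 members were lower and 2 higher, all 23 shared with the fit without it, and 1 G2/M gene was higher. Calls were sought at unknown depth with 3 libraries a group, and fold changes near the median SE of 0.06 cannot be told from 0.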
